A study of Rattus norvegicus with 3 samples.

Results

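TSPCs-7d vs. TSPCs-1d is the comparison of tendon stem/progenitor cells (TSPCs) grown from the Achilles tendon of rats aged 7 days with those grown from rats aged 1 day. It rests on 2 of the 3 arrays of the study, 1 for each age. The third array holds TSPCs-56d, cells of rats aged 56 days, whose values are given beside some genes and enter no ratio. They did take part in the choice of the probe set for each gene and in the dim level defined below. For each gene the ratio of the signal in TSPCs-7d to that in TSPCs-1d was taken, and it was available for 14217 genes. A gene is represented by the brightest of its probe sets, which are groups of short probes against a transcript. All groups were Sprague-Dawley rats with no genetic change or treatment given, and the RNA was taken at passage 2 from medium with serum. Each culture began from the tendons of at least 2 animals, pooled, and the cells grew out of tendon pieces and formed colonies, so each array shows a polyclonal culture, and not a purified cell type or animals measured singly. The arrays were Affymetrix Rat Genome 230 2.0.

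A tendon is a cord of parallel collagen fibrils, kept by rows of fibroblasts between muscle and bone. After birth the tissue passes from a phase rich in dividing cells to one in which few cells divide, while the fibrils thicken under the control of small proteoglycans, fibril-associated collagens and crosslinking enzymes. TSPCs are the cells of tendon that adhere, form colonies from single cells in culture and can be led to tendon, bone, cartilage or fat fates. In such cultures the transcripts of a dividing cell, the transcripts of matrix assembly and those of contractile cells are all abundant, and an array reads them together.

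Each value is a signal in intensity units on a linear scale, and signals are given in the order TSPCs-1d, TSPCs-7d. The median signal was 107 in TSPCs-1d and 108 in TSPCs-7d, and the median log2 ratio over all genes was 0.01. With 1 array per age no difference was checked by a replicate array, no test was possible and no value below has an error between cultures. The study reports that qPCR of *Alx1*, *Dcn* and *Lum* bore out its array values, and those measurements were not examined here. A signal under 48.9, the 25th percentile of all signals, is called dim, and a fold that involves a dim signal is given as "at least", with that signal raised to this level. In 2028 genes both signals were dim and no difference could be read. Some genes that define the labelled cell type were bright: *Scx*, the tendon transcription factor, had signals of 2255 and 2578, *Tnmd*, a membrane protein of tendon cells, 543 and 351, and *Col1a1*, the main fibril collagen, 14491 and 14736. The proteoglycan genes *Dcn* and *Lum*, given below, were dim or just over the dim level in both arrays. *Ptprc*, the pan-leukocyte gene CD45, was dim in both arrays at 20.8 and 24.96, and so was *Pecam1* of endothelium at 23.3 and 18. *Epcam*, a marker of epithelium, was dim as well, at 23.4 and 31.3. The cultures did not match in genes of the sex chromosomes: *Xist*, the RNA that coats the inactive X chromosome, had signals of 823 and 2083, 2.27-fold to 2.53-fold higher in 4 probe sets. *Eif2s3y*, a gene of the Y chromosome, had signals of 266 and 18.1, at least 5.43-fold lower, whereas *Uty*, also of the Y chromosome but with the X-linked *Kdm6a* among its older names, had 246 and 315. The part of the sex of the pooled animals in the differences below was not tested. In a culture of mixed cells, fewer cells of a type and less RNA per cell cannot be told apart.

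Most genes had nearly the same signal in both cultures. A ratio within 1.2-fold was found for 9722 genes (68.4%). Over 2-fold higher in TSPCs-7d were 266 of 14217 genes (1.87%), and over 2-fold lower 153 (1.08%), together 419 (2.95%). With dim signals raised, 242 genes (1.70%) were higher and 114 (0.802%) lower, and these are the counts used from here on. The excess of higher genes came from moderate folds: 229 of the 242 lay between 2-fold and 4-fold. Over 4-fold, 13 genes were higher and 12 lower, and over 5-fold 5 were higher and 7 lower. To order these genes by what they encode, 87 lists by function and family were drawn up, which cover 3347 genes. The lists hold 161 of the 242 higher genes and 63 of the 114 lower ones.

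**Figure D1:**
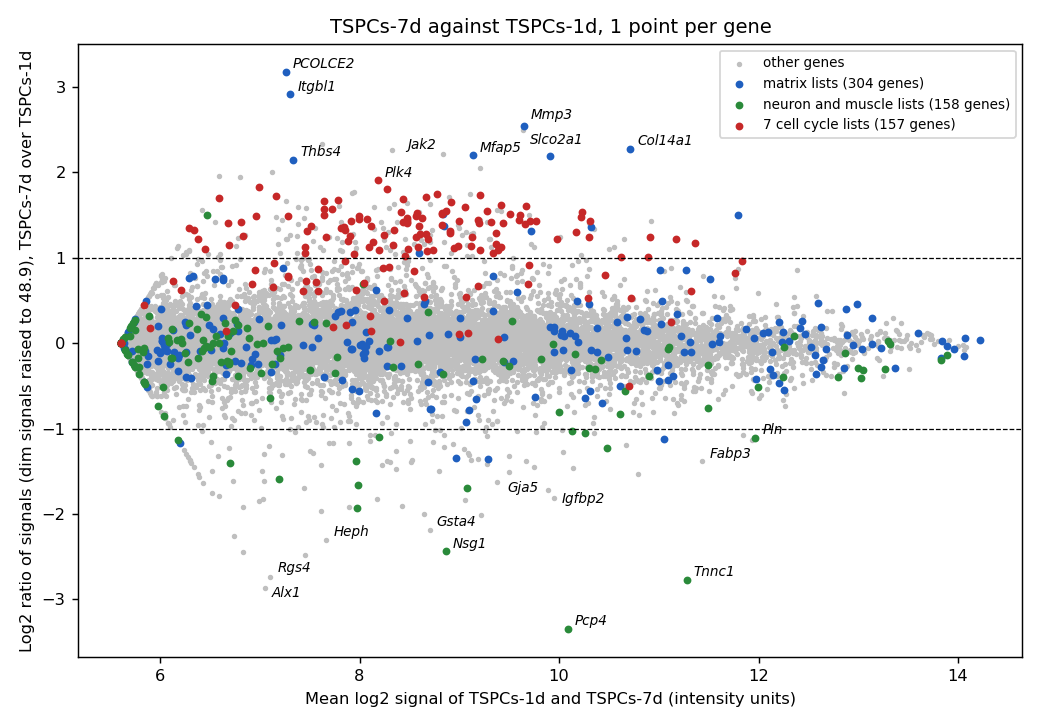
Log2 ratio of the signal in TSPCs-7d over that in TSPCs-1d (vertical axis) against the mean log2 signal of both arrays (horizontal axis, intensity units), 1 point for each of 14217 genes, with dim signals raised to 48.9; dashed lines mark 2-fold. Points of the 7 cell cycle lists form a band above the upper line, matrix genes reach the highest ratios and lie on both sides of 0, and the lowest ratios include muscle and neuron genes such as *Tnnc1* and *Pcp4*.

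The 3 highest folds with dim signals raised belonged to genes of secreted proteins. *PCOLCE2*, an enhancer of procollagen cleavage, had signals of 51 and 462, the highest fold of all genes (9.05-fold). *Itgbl1*, a secreted protein with repeats like those of the integrin beta chains, had 57.5 and 434, 7.54-fold higher. *Mmp3*, the matrix protease stromelysin-1, had 332 and 1930.1, 5.81-fold higher. In TSPCs-1d *PCOLCE2* and *Itgbl1* lay not far over the dim level, so this order depends on how faint signals are treated. With signals under the median raised to it, the log2 ratio of *PCOLCE2* went from 3.18 to 2.07. That of *Itgbl1* went from 2.92 to 1.98, and both then lay below *Mmp3*, which stayed at 2.54. These 3 genes were also bright in TSPCs-56d, with *PCOLCE2* at 503, *Itgbl1* at 626 and *Mmp3* at 1926. *Slco2a1*, which carries prostaglandins into the cell, was 5.67-fold higher at 334 and 1894, and at least 2.87-fold in its other probe set. *Ift27*, a small GTPase of the transport system inside cilia, was 5.03-fold higher at 88.1 and 443. *Palmd*, palmdelphin of the paralemmin family, was 4.82-fold higher in the probe set used and between 1.19-fold and 1.71-fold in 3 dimmer ones, so its size depends on the probe set. *Jak2*, the kinase that cytokine and growth hormone receptors activate, stood at 212 and 985 (4.64-fold) and at 338 in TSPCs-56d. *Arsi*, an arylsulfatase, stood at 290.5 and 1202 (4.14-fold). *Lcn2*, the iron-siderophore binding protein lipocalin 2, was dim in TSPCs-1d at 29.7 and had 190.2 in TSPCs-7d, at least 3.89-fold higher.

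With dim signals raised, the lowest ratios in TSPCs-7d were those of a calmodulin regulator, a homeobox factor and a troponin, in this order. As measured, *Alx1* and *Eif2s3y*, each dim in TSPCs-7d, lay below *Pcp4*. *Pcp4*, a small protein that speeds calcium exchange at calmodulin, had signals of 3475 and 341, 10.2-fold lower, and 1174 in TSPCs-56d. *Alx1*, a homeobox factor of the craniofacial mesenchyme, had 358 and a dim 29.2, at least 7.32-fold lower. *Tnnc1*, the calcium-binding troponin of slow and cardiac muscle, had 6489 and 951, 6.82-fold lower. In TSPCs-56d *Tnnc1* was lower still, at 127, *Alx1* was dim again, at 18.3, and *Pcp4* lay between the younger cultures. *Rgs4*, which shortens signals of G-protein coupled receptors, stood at 355 and 53.1, 6.696-fold lower, but only 1.604-fold lower in its other probe set. *Tppp*, a tubulin-bundling protein, was 5.57-fold lower at 413 and 74.1. *Nsg1*, an endosomal protein of neurons, was 5.42-fold lower at 1086 and 200.2. *Heph*, the copper oxidase hephaestin that serves iron export, was 4.92-fold lower at 451 and 91.6. *Serpinb1a*, an inhibitor of neutrophil proteases, was at least 4.78-fold lower in the probe set used and 1.08-fold lower in the other, which leaves its direction resting on 1 probe set.

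**Figure D2:**
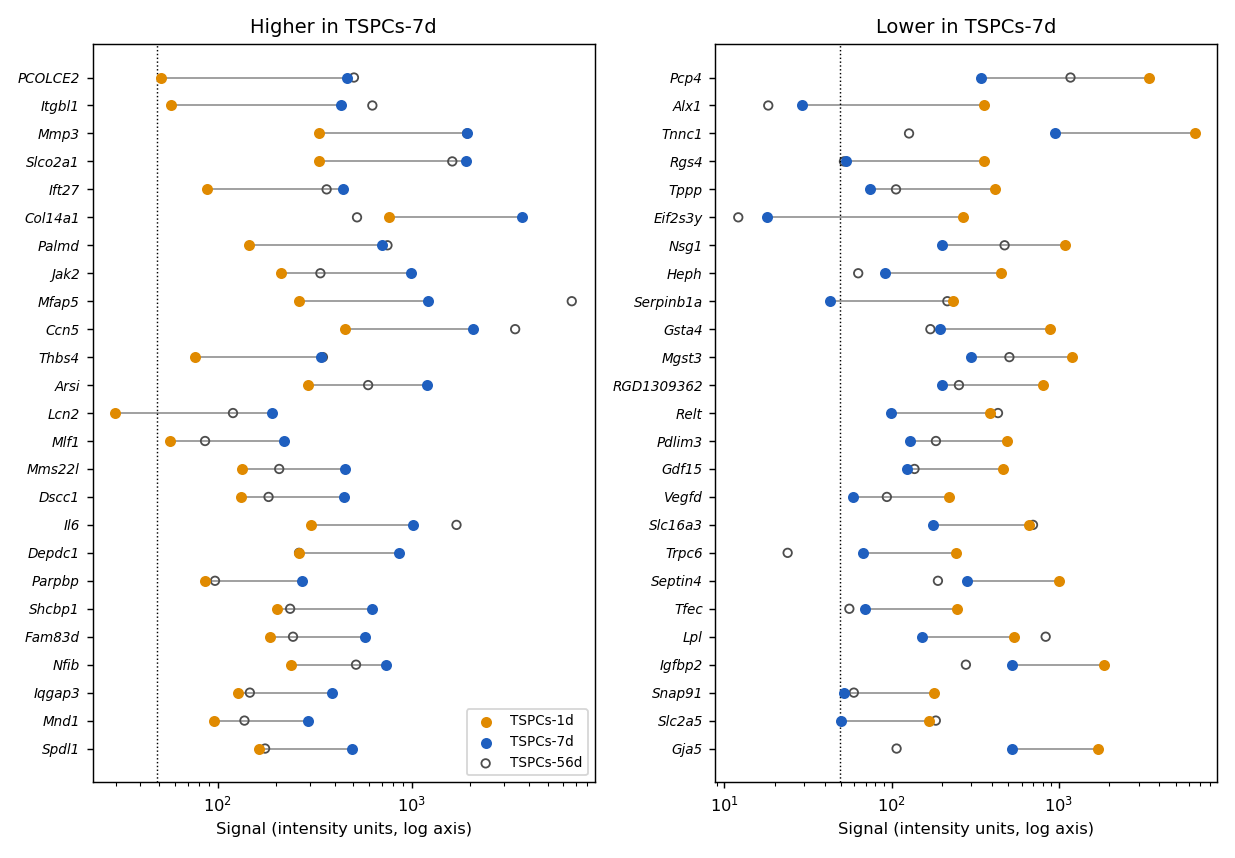
Signals (horizontal log axis, intensity units) of genes outside the cell cycle lists, 25 of the highest ratio on the left and 25 of the lowest on the right, with TSPCs-1d in orange, TSPCs-7d in blue and TSPCs-56d as open circles; the dotted line marks the dim level of 48.9. Among higher genes *Mfap5* (6668) and *Il6* (1698) are brighter still in TSPCs-56d while *Col14a1* (522) is back below its level in TSPCs-1d, and among lower genes *Slc16a3* and *Relt* have about the same signal in TSPCs-56d as in TSPCs-1d.

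The genes of cell division were higher together, each by a moderate fold. Of 157 genes in 7 lists (replication origins, DNA synthesis and nucleotide supply, mitotic kinases and cyclins, spindle and cytokinesis, kinetochore, chromosome structure, DNA repair), 108 were over 2-fold higher (68.8%, beside 1.70% of all genes) and 0 lower. The median log2 ratio of the 157 genes was 1.24, beside 0.01 over all genes, and 156 had a ratio over 1. Medians here and below are of the signals as measured. Of the 108 genes, 15 were over 3-fold higher and 0 over 4-fold, with folds between 2.01 and 3.75. By list, 22 of 27 mitotic kinase and cyclin genes, 17 of 19 spindle genes and 20 of 25 kinetochore genes were higher, with median log2 ratios of 1.38, 1.43 and 1.35. The shares were smaller in 20 origin genes with 13 higher, 26 DNA synthesis genes with 15, 20 chromosome structure genes with 12 and 20 repair genes with 9, at medians of 1.12, 1.03, 1.27 and 0.99.

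Members of each step of the division cycle were found among them. At the origin, *Mcm6*, a subunit of the replicative helicase, had signals of 239.7 and 804, 3.35-fold higher, and *Orc1*, of the origin recognition complex, was 3.25-fold higher. For nucleotides, *Tk1*, the thymidine kinase, was 2.93-fold higher at 363 and 1063. *Pola1*, the polymerase that primes new strands, was 2.38-fold higher. All 4 had a signal in TSPCs-56d between the younger cultures or close to that of TSPCs-1d: 379.7 for *Mcm6*, 76.9 for *Orc1*, 462 for *Tk1* and 155 for *Pola1*. In mitosis the highest fold was that of *Plk4*, the kinase that starts centriole duplication, with 150.2 and 563 (3.75-fold). *Ttk*, a kinase of the spindle checkpoint, was 3.28-fold higher. *Ccna2*, cyclin A2, was 2.904-fold higher at 703 and 2041. *Spag5*, a spindle protein, was 3.16-fold higher, *Knl1*, the kinetochore scaffold, 3.55-fold and *Mki67*, the proliferation antigen Ki-67, 3.33-fold at 324 and 1079. *Uhrf1*, which carries DNA methylation through replication, was 3.49-fold higher at 166 and 579.

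The regulators of the cycle were less uniform than its machinery. Of 22 G1 cyclins, E2F and Myb factors, 9 were over 2-fold higher (40.9%, beside 1.70% of all genes) and 0 lower, with a median log2 ratio of 0.59. *E2f8* and *E2f7*, the atypical E2F repressors, were 4.01-fold and 2.79-fold higher, and *E2f8* was the only gene of all 10 cell cycle lists over 4-fold. *Ccne2*, cyclin E2, was 2.47-fold higher in the probe set used, the other being dim in both arrays. *Foxm1*, a forkhead activator of mitotic genes, was 2.33-fold higher at 100.4 and 234. Of 21 inhibitors of the cycle and p53 targets, 2 were over 2-fold higher (9.52%, beside 1.70% of all genes) and 0 lower, at a median of -0.16. The higher ones were *Rbl1*, the pocket protein p107, at 314 and 820.3 (2.61-fold), and *Cdkn2c*, the inhibitor p18, which was 2.47-fold higher in 1 probe set and at a ratio of 0.919 in the other. *Cdkn1a*, the inhibitor p21 and a target of p53, had signals of 6336 and 3818, 1.66-fold lower and so within 2-fold, and *Mdm2*, the ligase that degrades p53, 3153 and 2140 (1.47-fold lower). Of 21 histone genes 0 were higher and 1 lower (4.76%, beside 0.802% of all genes), *Hist4h4* at 233 and 114. The variant gene *H2az1*, whose mRNA is polyadenylated, stood at 3986 and 7224 (1.81-fold).

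Of the 123 higher genes outside the 10 cell cycle lists, 81 were in no list at all, and some of these, picked after their values were seen, are also known from DNA replication or division. *Dscc1*, which loads the clamp of sister chromatid cohesion, was 3.39-fold higher at 132 and 448, and *Mms22l*, which rescues stalled forks, 3.402-fold. *Pclaf*, a partner of the replication clamp PCNA, was the brightest of these at 1180.5 and 3173 (2.69-fold). *Dtl*, an adaptor that marks licensing factors for breakdown, was 2.69-fold higher. *Depdc1*, *Shcbp1* and *Tacc3*, genes of mitosis and cytokinesis, were 3.29-fold, 3.11-fold and 2.55-fold higher. Chromatin enzymes that copy marks on new DNA were among them too: *Dnmt1*, the maintenance DNA methyltransferase, had 379.8 and 771 (2.03-fold), *Ezh2*, the histone methyltransferase of Polycomb, 278 and 631 (2.27-fold) and *Hells*, a chromatin remodeller, 91.5 and 232 (2.53-fold).

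As many of the higher genes moved together, promoters were searched for the motifs known from cell cycle genes. The window ran from 250 bases before to 50 bases after the RefSeq start in rat assembly GRCr8, on both strands. The motifs were CHR (TTTGAA), which the MuvB complex binds with B-Myb or FOXM1, the NF-Y box (CCAAT), and the E2F site, counted when written as TTCCCGC or with the letters TTCGCGC, and likewise as TTGCCGC or with the letters TTGGCGC. An E2F match on 1 strand can overlap a match on the other. Of 61 promoters of the mitotic, spindle and kinetochore lists, 59.02% held CHR and 18.03% an E2F site. Of 41 promoters of the origin and DNA synthesis lists, 12.2% held CHR and 68.3% an E2F site. Over the 11700 measured genes with a promoter in the table the shares were 12.3% for CHR, 15.8% for E2F and 37.3% for NF-Y, and NF-Y was in 63.9% and 56.1% of the promoters of these groups of lists. These groups hold all members of their lists, whatever the ratio. Of 137 promoters of the 7 cell cycle lists, 37.96% held CHR and 40.88% an E2F site. Of the 94 among them whose gene was over 2-fold higher, 42.55% held CHR and 39.36% an E2F site. Of 99 promoters of higher genes in no cell cycle list, 27.3% held CHR, 32.3% an E2F site and 51.5% NF-Y. Of 86 promoters of lower genes, 10.5% held CHR, 9.30% an E2F site and 33.7% NF-Y. These shares describe letters in a window and not binding. The gene with the highest fold of the mitotic list and that of the origin list are shown 5′ to 3′ as RefSeq sequence, each with 250 bases before the start and the first 30 bases after it, in lower case with the matches in capitals. *Plk4* (chr2:125730230-125730509, plus strand) holds GCGGGAA, an E2F match on the opposite strand, 9 bases into the transcript and TTCAAA, a CHR match on the opposite strand, at base 19:
Plk4: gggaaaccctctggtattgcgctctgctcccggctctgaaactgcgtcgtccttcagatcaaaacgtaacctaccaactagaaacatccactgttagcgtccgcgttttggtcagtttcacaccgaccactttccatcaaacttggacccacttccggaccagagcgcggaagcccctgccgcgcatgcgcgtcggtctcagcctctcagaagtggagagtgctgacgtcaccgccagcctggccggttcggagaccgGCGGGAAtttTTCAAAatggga
*Mcm6* (chr13:42404323-42404602, minus strand) holds overlapping E2F matches on both strands at -138 and -135 and again at -75 and -72, a further 1 at -5, and NF-Y boxes on the opposite strand (ATTGG) at -86 and -43:
Mcm6: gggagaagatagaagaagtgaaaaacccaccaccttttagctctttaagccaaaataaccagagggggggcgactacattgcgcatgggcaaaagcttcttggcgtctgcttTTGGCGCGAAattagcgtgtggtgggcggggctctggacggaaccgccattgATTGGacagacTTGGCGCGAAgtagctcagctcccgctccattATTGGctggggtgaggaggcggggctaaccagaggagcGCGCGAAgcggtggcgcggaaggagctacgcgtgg

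Some matrix genes were among the highest folds of the comparison. Of 304 genes in the matrix lists, 13 were over 2-fold higher (4.28%, beside 1.70% of all genes) and 4 over 2-fold lower (1.32%, beside 0.802%), with a median log2 ratio of -0.01. *Col14a1*, a collagen that sits on the surface of fibrils and is known from tendon, had signals of 765 and 3702, 4.84-fold higher, and 4.03-fold in its other probe set. In TSPCs-56d it stood at 522, the lowest of the 3 arrays. *Col6a3*, a chain of the beaded filaments around cells, had 799.9 and 2051 (2.56-fold, and 1.43-fold in the other probe set). *Col15a1*, a collagen near basement membranes, had 535 and 1331 (2.49-fold) and 3020.3 in TSPCs-56d. *Col19a1*, a minor collagen, went the other way, at 109.9 and a dim 33.6, at least 2.25-fold lower. These 4 were the genes past 2-fold among 30 collagens that do not form the main fibrils, 3 higher (10%, beside 1.70% of all genes) and 1 lower (3.33%, beside 0.802%).

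The 11 fibrillar collagens held no gene past 2-fold and had a median log2 ratio of 0.03. *Col1a2* stood at 18751 and 19315 and *Col3a1*, of thin and young fibrils, at 15320 and 14955, close to the top of the scale in each culture. Furthest from 1 were *Col11a1*, 1.69-fold higher at 2256 and 3814, and *Col5a3*, 1.72-fold higher. The other fibrillar collagen genes lay within 1.5-fold. Of 23 genes of collagen processing and crosslinking, *PCOLCE2* was the only one past 2-fold, and the others lay between log2 ratios of -0.55 and 0.31. Among 15 small leucine-rich proteoglycans, *Fmod*, fibromodulin, which steers fibril growth and crosslinking, was 2.85-fold higher at 271 and 774, and it was the only member past 2-fold. *Dcn*, decorin, had a dim 22.4 and 49.4, just over the dim level, and *Lum*, lumican, was dim in both at 22.9 and 22.4. In TSPCs-56d these proteoglycans were bright, at 607 for *Dcn* and 1022 for *Lum*. *Bgn*, biglycan, was bright throughout, at 7328 and 7837.

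Elastic fibres and matricellular proteins added further higher genes. *Mfap5*, a microfibril protein, had 262 and 1205, 4.597-fold higher. *Fbln2*, fibulin-2, which links elastic fibres to other matrix, was the brightest of the higher matrix genes at 2108 and 5952 (2.82-fold). They were the only members past 2-fold among 22 elastic fibre and microfibril genes (9.09%, beside 1.70% of all genes), and both were brighter in TSPCs-56d at 6668 and 8204. Among 30 matricellular and adhesive glycoproteins 3 were higher (10%, beside 1.70% of all genes) and 1 lower (3.33%, beside 0.802%). *Ccn5*, a secreted CCN protein that restrains growth of smooth muscle cells, had 449.9 and 2060.3 (4.58-fold). *Thbs4*, a thrombospondin of tendon, had 76.5 and 339.6 (4.44-fold), and *Thbs2* 285 and 741 (2.6-fold). *Ccn3* of the same CCN family was 2.53-fold lower at 796 and 314, so members of this family lay on opposite sides.

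Among 56 metalloproteases and their inhibitors, 2 were higher (3.57%, beside 1.70% of all genes) and 1 lower (1.79%, beside 0.802%). The higher ones were *Mmp3* and *Adamtsl1*, a relative of the ADAMTS proteases without catalytic part, the latter 2.07-fold at 269 and 557. *Adam23*, a disintegrin of neural tissue, was 2.55-fold lower, with ratios of 0.835 and 0.537 in its other probe sets. The median of that list was -0.09, with 37 of 56 ratios under 1. Of 30 proteoglycan and hyaluronan genes, *Tnfaip6*, which crosslinks hyaluronan in inflammation, was the only member past 2-fold, 2.18-fold lower at 3128 and 1435. Among 23 integrin genes only *Itgbl1*, which is not a receptor chain itself, passed 2-fold. The laminin receptor chains *Itga7* and *Itga6* were 1.704-fold and 1.62-fold lower, within the cutoff, and *Itgb1* had 9072 and 8999.8. No gene passed 2-fold among 17 laminin and basement membrane genes or 47 cadherins and protocadherins, at medians of -0.05 and -0.07.

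**Figure D3:**
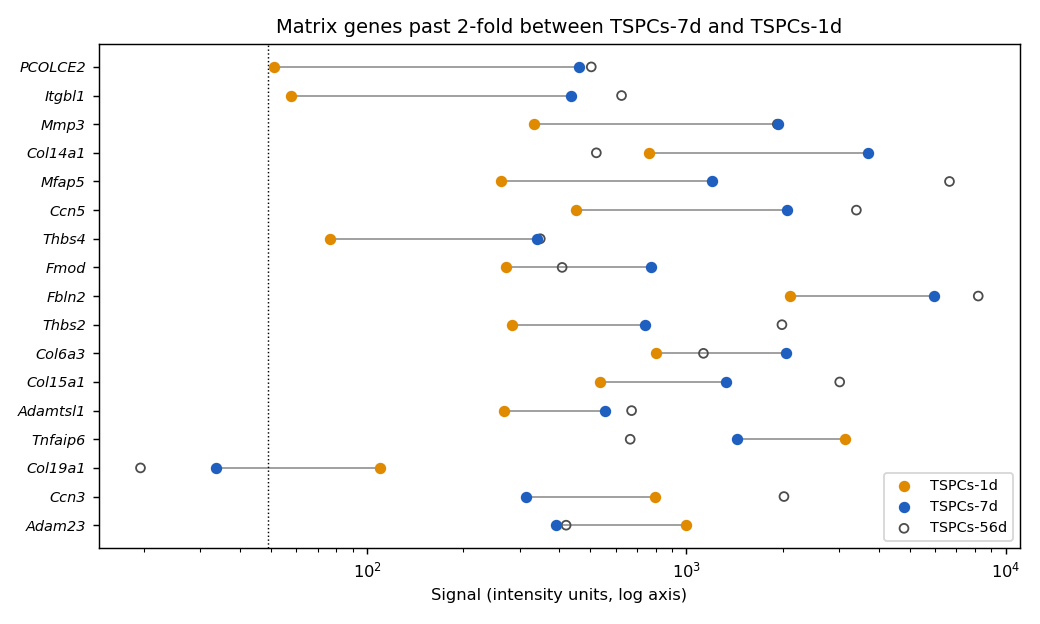
Signals (horizontal log axis, intensity units) of the 17 matrix genes past 2-fold, with TSPCs-1d in orange, TSPCs-7d in blue and TSPCs-56d as open circles; the dotted line marks the dim level of 48.9. The upper 13 genes are higher and the lower 4 lower in TSPCs-7d, and among the higher genes *Col14a1*, *Fmod* and *Col6a3* have a lower signal in TSPCs-56d than in TSPCs-7d.

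Of 20 listed tendon genes, 3 were over 2-fold higher (15%, beside 1.70% of all genes) and 0 lower, and the median log2 ratio was 0.10. The higher ones were *Col14a1*, *Thbs4* and *Fmod*, all matrix genes. The transcription factors of the list lay close to 1: *Scx* was 1.14-fold higher, and *Nfatc4* had 735 and 716. *Egr1*, a factor induced by load, had 3720.4 and 3992. *Tnmd* was 1.55-fold lower, the lowest ratio of the list, and stood at 158 in TSPCs-56d. *Eya1*, a cofactor of homeobox proteins, had 993 and 814.

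The patterning factors of limb and axis were alike in both cultures. None of 24 Hox genes passed 1.5-fold, with a median log2 ratio of 0.05 and a range of -0.16 to 0.32. Nor did any of 9 T-box genes pass it, at a median of 0.08, and none of 19 Sox and HMG box factors or 35 Klf, Egr and AP-1 factors passed 2-fold, at medians of 0.03 and -0.14. Among 81 other homeobox genes, *Alx1* and *Irx3* were lower (2.47%, beside 0.802% of all genes) and *Zfhx4* higher (1.23%, beside 1.70%). *Irx3*, a factor of the Iroquois family, had 747 and 264 (2.83-fold lower), but a ratio of 1.05 in the next of its probe sets, and the last was dim in both arrays. *Zfhx4*, a zinc finger and homeobox factor, was 2.38-fold higher, with ratios of 2.399 and 1.05 in the next ones. Apart from *Foxm1*, no forkhead gene of 30 passed 2-fold. *Hey2*, a repressor downstream of Notch, was the only one of 49 bHLH factors, at 134 and 319.5 (2.38-fold). Of 62 nuclear receptor and retinoic acid genes, 1 was higher (1.61%, beside 1.70% of all genes) and 1 lower (1.61%, beside 0.802%). *Rarb*, a retinoic acid receptor, was 2.07-fold higher and *Rarres1*, a gene induced by retinoids, 2.49-fold lower at 1142 and 459. In no list, *Nfib*, a nuclear factor I protein, had 237 and 734 (3.09-fold, with a ratio of 3.12 in the next probe set). *Mecom*, a zinc finger factor of stem cells, had 199 and 489 (2.46-fold, but a ratio of 0.949 in the other probe set).

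Most genes of contractile cells had a lower signal in TSPCs-7d, few of them past 2-fold. Of 36 smooth muscle and pericyte genes 4 were over 2-fold lower (11.1%, beside 0.802% of all genes) and 0 higher, 32 had a ratio under 1, and the median log2 ratio was -0.30. *Pdlim3*, a protein of the Z line and of stress fibres, had 492 and 129 (3.83-fold lower). *Mustn1*, a small nuclear protein of muscle and skeleton, had 973 and 299.5 (3.25-fold). *Mcam*, the pericyte surface protein CD146, had 2182 and 930 (2.35-fold). *Pln*, phospholamban, which restrains the calcium pump of the reticulum, had 5884 and 2729 (2.16-fold), with ratios of 0.412 and 0.455 in its other probe sets. Just within the cutoff lay *Mylk*, the kinase of myosin light chain, 1.78-fold lower, *Lmod1*, leiomodin, 1.75-fold, and *Actg2*, the enteric smooth muscle actin, 1.69-fold. The list summed to a signal of 142330 in TSPCs-1d and 117670 in TSPCs-7d.

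Of 62 skeletal muscle genes 5 were lower (8.06%, beside 0.802% of all genes) and 0 higher, at a median of -0.18. Beside *Tnnc1* these were *Myom1*, myomesin of the M line, 2.604-fold lower at 404 and 155, and *Acta1*, skeletal alpha-actin, 2.07-fold at 1772 and 855. *Ldb3*, a Z line protein, was 2.13-fold lower, and *Myh6*, a cardiac myosin chain, at least 2.198-fold in 1 probe set, the other being dim in both arrays. *Acta1* was highest in TSPCs-56d, at 5327, unlike *Tnnc1*. The defining genes of skeletal muscle were at or near the dim level: *Myod1*, the myogenic factor, had 23.6 and 28.97 and *Myog*, myogenin, 44.6 and 56.02. *Ckm*, muscle creatine kinase, had 102 and 118, 1.16-fold higher. In no list but known from striated muscle, *Synm*, synemin, was 2.25-fold lower in 1 probe set, with a ratio of 0.966 in the next, and *Fhod3*, a formin of the sarcomere, 2.49-fold. *Rcan1* and *Rcan2*, inhibitors of the calcium-dependent phosphatase calcineurin, were 2.84-fold and 2.68-fold lower, at 1219.9 and 429 for *Rcan1* and 1019 and 381 for *Rcan2*.

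Several genes best known from neurons were lower as well. Of 64 neuron genes 6 were over 2-fold lower (9.38%, beside 0.802% of all genes) and 1 higher (1.56%, beside 1.70%), at a median of -0.12. *Pcp4* and *Nsg1* led. *Stmn2*, a microtubule-destabilizing stathmin of growth cones, had 449.6 and 142 (3.16-fold lower), and *Crmp1*, a collapsin response mediator, 253 and 84.02 (3.01-fold). *Nefm*, the medium neurofilament chain, was 2.64-fold lower at 169 and 63.96 while *Nefh*, the heavy chain, was 2.83-fold higher at 52.6 and 149. *Eno2*, the enolase of neurons and glycolysis, was 2.05-fold lower. The neuronal RNA-binding protein gene *Elavl3* had 231 and 206, and the synaptic gene *Snap25* 58.7 and 54.7, so these defining genes of neurons were nearly equal in both cultures. *Tac1*, the precursor of substance P, was at least 3.11-fold lower at 152 and a dim 44.7, the only one past 2-fold of 26 endothelin, apelin and vasoactive peptide genes. *Grid1*, a glutamate receptor of the delta class, was 3.24-fold lower at 313 and 96.5.

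Markers of the other cell types a tendon could hold gave few differences. No gene passed 2-fold among 26 endothelial genes (median -0.01, summed signal 2789 and 2725), 20 Schwann cell and glia genes (0.18, 7571 and 8063) and 7 red blood cell genes (-0.16, 687 and 546). The same held for 24 markers of macrophages, dendritic and mast cells (-0.09, summed signal 1750 and 1608). Their defining genes lay under or not far above the median signal of each array: *Csf1r*, the macrophage growth factor receptor, stood at 76.9 and 76.5, *Cd68*, a lysosomal protein of macrophages, at 122 and 109, and *Sox10* of Schwann cells at 50.02 and 57.9. Both signals were dim in 11 of the endothelial genes, 7 of the Schwann cell and glia genes and 2 of the red blood cell genes. The same was true of 10 of the macrophage, dendritic and mast cell markers. In these genes no difference could be read. Of 55 epithelial and keratinocyte genes, 19 of them dim in both arrays, 1 was over 2-fold higher (1.82%, beside 1.70% of all genes). It was the keratin gene *Krt79* at 57.3 and 153, 2.67-fold higher. Surface markers of mesenchymal stem cells were alike, with *Mcam* the only one of 16 past 2-fold. *Thy1*, or CD90, had 5077 and 5379.6 and *Cd44*, the hyaluronan receptor, 1384 and 1293.

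Genes of the bone, cartilage and fat lineages differed singly. Of 25 bone and mineralization genes 2 were higher (8%, beside 1.70% of all genes) and 1 lower (4%, beside 0.802%). *Cthrc1*, a secreted protein of matrix-forming cells, had 268 and 674 (2.52-fold higher), and *Enpp1*, which makes the mineralization inhibitor pyrophosphate, 989 and 2118 (2.14-fold). *Dmp1*, an acidic protein of osteocytes and dentin, was 3.06-fold lower at 229.9 and 75.1. Among 21 cartilage genes none passed 2-fold, at a median of 0.03. Of 39 adipogenic and lipid uptake genes 2 were higher (5.13%, beside 1.70% of all genes) and 2 lower (5.13%, beside 0.802%). *Cebpd*, an early adipogenic factor, was 2.33-fold higher at 414 and 962, with ratios of 1.74 and 0.966 in its other probe sets, and *Zfp521*, which holds back that fate, 2.25-fold. *Lpl*, the lipoprotein lipase, was 3.55-fold lower at 542 and 153, and *Fabp3*, a fatty acid carrier of muscle and heart, 2.61-fold at 4475 and 1716.

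Growth factors and the proteins that bind them differed singly. In the IGF list of 26 genes, 2 were higher (7.69%, beside 1.70% of all genes) and 2 lower (7.69%, beside 0.802%). The ligand *Igf1* had 153 and 328 (2.13-fold higher), with ratios of 1.97 and 1.75 in its other probe sets. Its binding proteins lay on both sides: *Igfbp6*, which prefers IGF-II, was 2.23-fold higher at 564 and 1259.6. *Igfbp2* was 3.51-fold lower at 1854 and 528, and *Igfbp5* 2.45-fold at 207 and 84.5. Ligand and carriers thus did not share a direction. Of 39 BMP pathway genes 2 were lower (5.13%, beside 0.802% of all genes) and 0 higher, at a median of 0.00. These were *Bmper*, a secreted BMP binder, at 1168 and 378 (3.09-fold), and *Gdf15*, a distant BMP relative induced by stress, at 464 and 123 (3.78-fold). The ligand *Bmp4* was 1.83-fold higher and *Bmp2* 1.88-fold lower, both within the cutoff. *Lrrc32*, which holds latent TGF-beta at the cell surface, was the only gene past 2-fold of 23 TGF-beta and activin genes, 2.12-fold higher at 136 and 289.

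In other ligand families the genes past 2-fold were mostly ligands. *Vegfd*, a lymphatic growth factor, was 3.78-fold lower at 222 and 58.7, the only one past 2-fold of 25 PDGF, VEGF and angiopoietin genes. *Fgf1*, acidic FGF, was 2.27-fold lower in the probe set used, with ratios of 0.837 and 0.547 in others, the only one of 42 FGF pathway genes. Of 31 genes of the EGF, neuregulin, HGF and neurotrophin families 3 were lower (9.68%, beside 0.802% of all genes) and 0 higher. The lower ones were *Areg*, the EGF receptor ligand amphiregulin, 2.48-fold at 236 and 94.95, *Mdk*, the heparin-binding factor midkine, 2.11-fold at 670.1 and 317, and *Gfra1*, a receptor of GDNF, 2.104-fold. The second probe set of *Gfra1* had a ratio of 1.14. None of 50 Wnt pathway genes and 29 Notch and Hedgehog genes passed 2-fold, at medians of 0.10 and -0.07, and all 29 of the latter lay within 1.5-fold. Of 60 ephrin, semaphorin, netrin and Slit genes, 1 was higher (1.67%, beside 1.70% of all genes) and 1 lower (1.67%, beside 0.802%). *Sema3e*, a secreted semaphorin that repels vessels, was 2.95-fold higher at 273 and 805, and *Epha4*, an ephrin receptor, 2.39-fold lower at 281 and 117. *Reln*, the secreted guidance protein reelin, in no list, was 2.67-fold higher at 203 and 541.

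Among receptors and signal regulators, lower genes prevailed in 1 family. Of 179 G-protein coupled receptors 6 were over 2-fold lower (3.35%) and 0 higher, beside 0.802% and 1.70% over all genes. *Ackr3*, a scavenger of the chemokine CXCL12, was 2.56-fold lower at 934 and 365. *Adgrg1*, an adhesion receptor, was 2.699-fold lower at 491 and 182. *S1pr1*, a receptor of sphingosine 1-phosphate, was 2.07-fold lower at 1877 and 909, and 1.15-fold in its other probe set. The adrenergic receptor genes *Adra2a* and *Adrb3* were 2.302-fold and 2.34-fold lower, though *Adra2a* had a ratio of 1.28 in its other probe set, and *Gpr34*, a lipid receptor, was dim in TSPCs-7d and at least 2.74-fold lower. Among 17 regulators of G-protein signalling, *Rgs4* alone was past 2-fold in the probe set used. The study, however, lists a probe set of *Rgs2* as more than 2-fold lower in TSPCs-7d than in TSPCs-1d. Of 35 JAK, STAT and SOCS genes, *Jak2* and the cytokine *Il6* were higher (5.71%, beside 1.70% of all genes). *Socs3*, a feedback inhibitor that this pathway induces, had 58.04 and 49.8 and *Stat3*, its main factor, 938 and 1175. None of 20 dual-specificity phosphatase genes passed 2-fold, at a median of -0.15.

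Immune genes differed singly. Of 69 cytokines and chemokines, 1 was higher (1.45%, beside 1.70% of all genes) and 1 lower (1.45%, beside 0.802%). *Il6*, interleukin 6, was 3.36-fold higher at 301 and 1012, with 1698 in TSPCs-56d, and *Ccl5*, a chemokine for T cells, 3.07-fold lower at 186 and 60.6. Of 64 cytokine receptors, 1 was higher (1.56%, beside 1.70% of all genes) and 2 lower (3.125%, beside 0.802%). *Relt*, a TNF receptor family member, was 3.92-fold lower at 387 and 98.8, *Ackr3* was lower as above, and *Tnfrsf26* of the same TNF receptor family 2.55-fold higher. In the list of 82 complement, coagulation and serpin genes 3 were higher (3.66%, beside 1.70% of all genes) and 3 lower (3.66%, beside 0.802%). *C1s*, the protease of the first complement component, had 103 and 272 (2.63-fold higher) and 1576 in TSPCs-56d. *C1qtnf7*, a secreted C1q-like protein, was 2.95-fold higher, and *Thbd*, thrombomodulin, 2.14-fold. *Serpinb9*, an inhibitor of granzyme B, was 2.29-fold lower at 2473 and 1078, *Clu*, the chaperone clusterin, 2.36-fold at 812 and 344, and *Serpinb1a* as given above. No gene passed 2-fold among 31 MHC and antigen presentation genes or 40 interferon response genes, at medians of 0.05 and 0.09.

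The prostaglandin genes differed at the transporter and little at the enzymes. *Slco2a1* was the only one of 27 past 2-fold. *Ptgs2*, the inducible cyclooxygenase, had 4059 and 2869 (1.41-fold lower), and *Ptgs1*, the constitutive one, 262 and 480 (1.83-fold higher). Of 20 glucocorticoid genes, 3 were higher (15%, beside 1.70% of all genes) and 0 lower, at a median of -0.04. *Hsd11b1*, which regenerates active glucocorticoid inside cells, was 2.28-fold higher at 304 and 694. *Lcn2* and *Saa3*, an acute phase protein, were dim in TSPCs-1d, and *Saa3* was at least 2.198-fold higher. *Fkbp5*, a chaperone partner induced by the hormone, lay at the cutoff with 122 and 244, and *Klf9*, a further target, was 1.21-fold lower.

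Transporters and channels were mostly alike. Of 306 solute carriers 1 was higher, *Slco2a1* (0.327%, beside 1.70% of all genes), and 4 were lower (1.31%, beside 0.802%). *Slc16a3*, the lactate exporter, was 3.74-fold lower at 667 and 178, with 701 in TSPCs-56d. *Slc2a5*, the fructose transporter, was 3.36-fold lower at 168 and 49.9, *Slc16a12*, a monocarboxylate carrier, 2.21-fold and *Slc19a2*, a thiamine transporter, 2.07-fold. *Gja5*, connexin 40 of arteries and the heart, was the only one of 13 connexins and pannexins past 2-fold, at 1715 and 522 (3.29-fold lower), and its other probe set was dim in both arrays. *Trpc6*, a calcium-permeable channel, was 3.595-fold lower at 242 and 67.3, and *Clic2*, an intracellular chloride channel protein, 2.05-fold higher. These were the only ones past 2-fold of 158 ion channels, 0.633% lower (beside 0.802% of all genes) and 0.633% higher (beside 1.70%). *Car3*, the carbonic anhydrase of muscle and fat, was 2.11-fold lower at 5356 and 2536, with a ratio of 0.425 in its other probe set, and was alone among 25 carbonic anhydrases and aquaporins. No gene of the 66 listed ligand-gated channels and 39 ATP-binding cassette transporters passed 2-fold, at medians of -0.02 and 0.01. The list of ligand-gated channels does not hold the glutamate receptor gene *Grid1*, which was lower as given above.

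Detoxifying enzymes included some of the strongest lower genes. Of 59 glutathione and antioxidant genes 3 were lower (5.08%, beside 0.802% of all genes) and 1 higher (1.69%, beside 1.70%), at a median of -0.01. *Gsta4*, the glutathione transferase that clears the lipid aldehyde hydroxynonenal, had 889 and 195 (4.55-fold lower). *Mgst3*, a microsomal glutathione transferase, had 1196 and 297 (4.03-fold). *Gstt2*, of the theta class, was 2.23-fold lower and 1.05-fold in its other probe set. *Txnip*, which binds thioredoxin and restrains glucose uptake, was 2.02-fold higher at 394 and 796, close to the cutoff. Of 58 cytochromes P450, 1 was higher (1.72%, beside 1.70% of all genes) and 1 lower (1.72%, beside 0.802%). *Cyp1a1*, the target of the aryl hydrocarbon receptor, was at least 2.38-fold lower, and *Cyp3a9* 2.098-fold higher at 53.04 and 111.

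Hypoxia and glycolysis genes leaned to the lower side by small folds. Of 43 such genes 2 were over 2-fold lower (4.65%, beside 0.802% of all genes) and 0 higher. The median log2 ratio was -0.25, and 38 had a ratio under 1. Beside *Slc16a3* and *Eno2* (at 1607 and 786), *Bnip3*, a mitophagy receptor induced by hypoxia, was 1.71-fold lower and *Ldhb*, a lactate dehydrogenase chain, 1.78-fold. Cholesterol synthesis genes leaned the other way, with a median of 0.33 over 21 genes, 17 of them over 1, 6 over 1.5-fold and none over 2-fold. *Idi1*, the isomerase of isopentenyl diphosphate, was 1.87-fold higher at 342 and 639.5, and *Insig1*, which holds the escort of SREBP in the reticulum, 1.701-fold. In 43 genes of the unfolded protein and integrated stress response, *Gdf15* alone passed 2-fold. *Ddit3*, the stress factor CHOP, was 1.603-fold lower, whereas the serine synthesis genes *Psat1* and *Phgdh* were 1.73-fold and 1.69-fold higher. *Plagl1*, an imprinted zinc finger factor, was the only one of 28 imprinted and fetal growth genes past 2-fold, 2.02-fold lower at 615 and 305, and *Igf2* itself had 188 and 194.

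The genes that every cell uses lay close to a ratio of 1. None passed 2-fold among 89 respiratory chain and ATP synthase genes (median log2 ratio -0.05), 43 heat shock genes (-0.04), 40 proteasome genes (-0.03), 42 ribosomal protein genes (0.06), 12 reference genes (-0.01) and 16 circadian clock genes (0.08). The ribosomal protein genes ranged from -0.11 to 0.32 and the reference genes from -0.34 to 0.19. No annexin or S100 gene of 26 passed 2-fold (-0.05), and *Acta1* was the only one of 23 tubulins, actins and tropomyosins (-0.02). *Snap91*, a clathrin assembly protein of synapses, was 3.46-fold lower at 179 and 51.7, and at a ratio of 1.05 in its other probe set with a dim signal raised, the only one of 108 Rab and vesicle genes (-0.08). *Tm4sf1*, a tetraspanin-like membrane protein, was 2.33-fold higher at 229 and 534, the only one of 30 tetraspanin and PMP22-like genes (-0.01). In all, 27 of the 87 lists had no member past 2-fold, and their medians lay between -0.16 and 0.33.

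**Figure D4:**
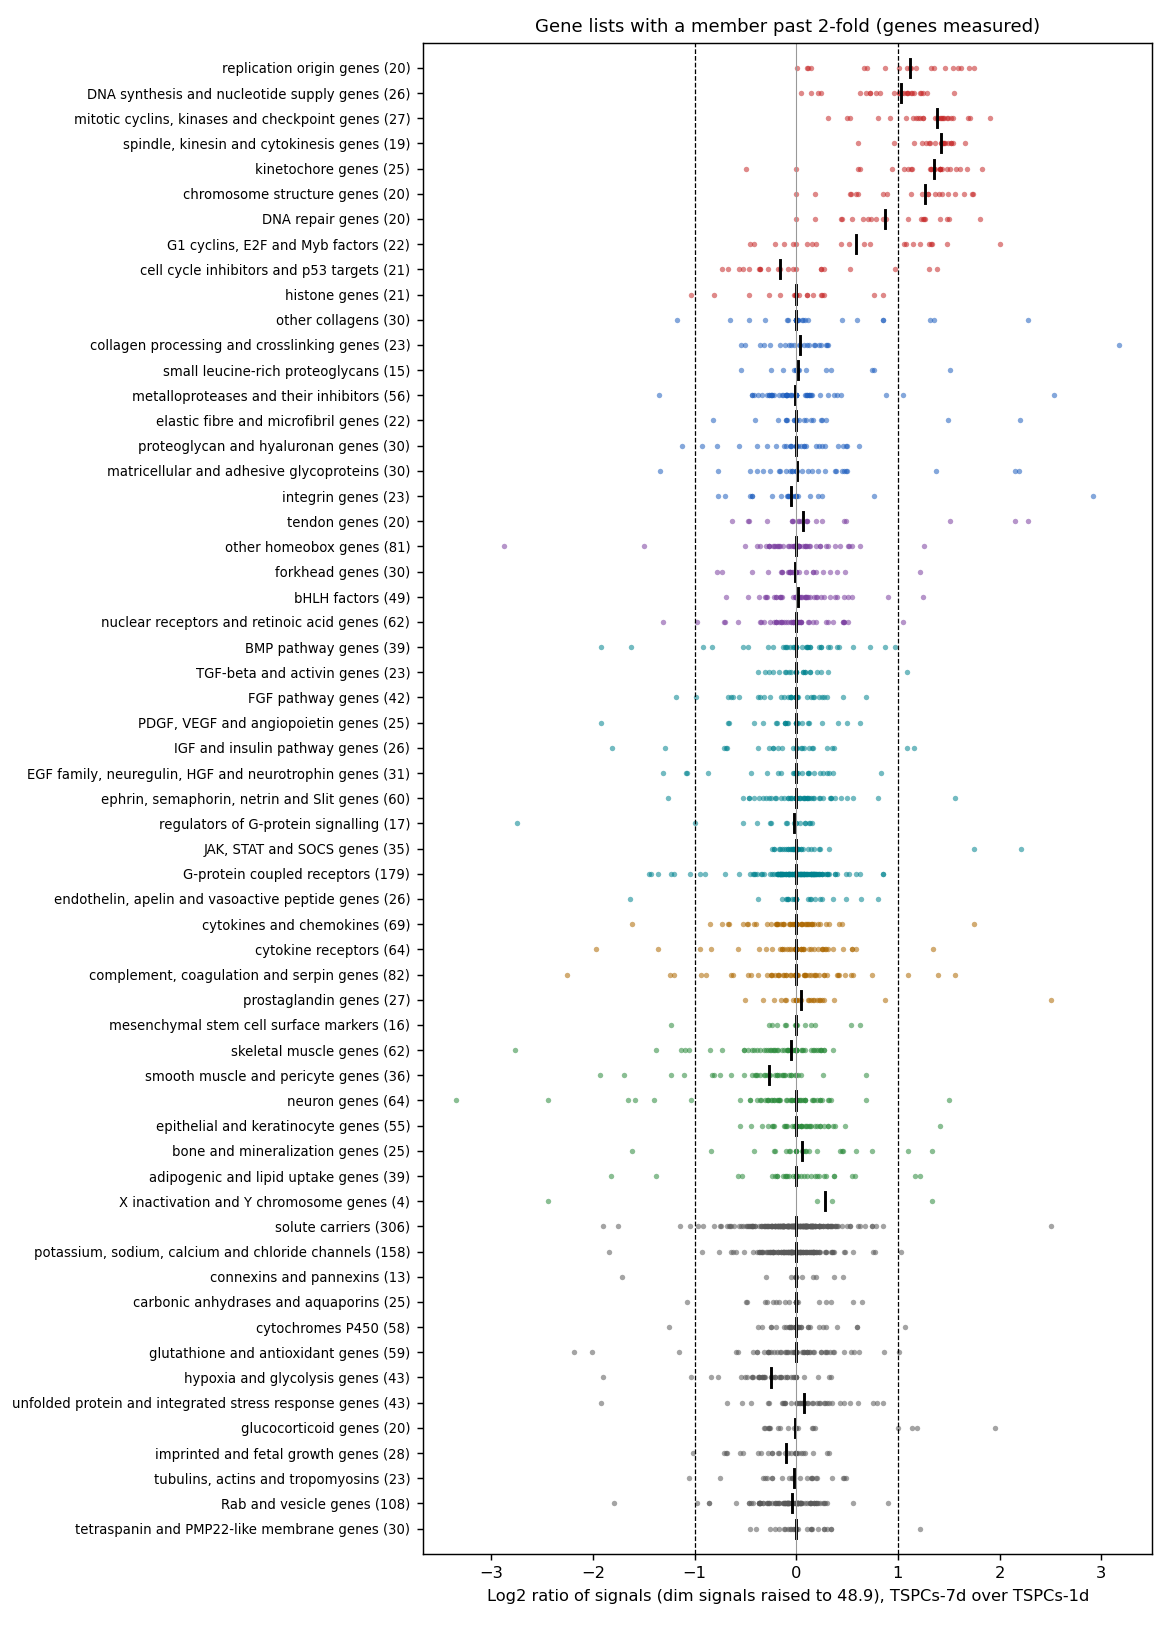
Log2 ratio of TSPCs-7d over TSPCs-1d, with dim signals raised to 48.9, for the members of 59 lists with a gene past 2-fold, 1 point per gene with the median of every list as a black bar; dashed lines mark 2-fold and the number of measured genes is in parentheses. Medians of the upper lists of the cell cycle lie near or above the 2-fold line, and those of the other lists lie near 0, furthest below it in smooth muscle and in hypoxia genes and, outside the cell cycle, furthest above it in the small list of X inactivation and Y chromosome genes.

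Of the 114 lower genes 51 were in no list. *Septin4*, a septin of the cytoskeleton, had 1004 and 282 (3.57-fold lower), and *Tfec*, a relative of the factor MITF, 248 and 69.6 (3.56-fold), but 1.21-fold in its other probe set. *Dmrt2*, a factor of somite patterning, had 549.5 and 198 (2.78-fold), and 519 in TSPCs-56d. *Birc2*, an inhibitor of apoptosis, was 2.76-fold lower at 1874 and 679. Enzymes of fatty acids and organelles were among them: *Acot2*, a mitochondrial acyl-CoA thioesterase, had 1421 and 522 (2.72-fold), with a ratio of 0.4101 in the next probe set, and *Pex19*, an import factor of peroxisomes, was 2.03-fold lower. *Crem*, a cyclic AMP responsive factor, was lower in all 4 of its probe sets, 2.21-fold in the brightest and by ratios of 0.414 to 0.526 in the others. On the higher side and in no list, *Esm1*, the secreted proteoglycan endocan, was 2.33-fold higher at 1051 and 2449, *Plpp3*, a lipid phosphate phosphatase, 2.04-fold at 836 and 1707, and *Igsf10*, an immunoglobulin domain protein, 3-fold at 102 and 305.

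How far a fold depends on the probe set is shown by genes with more than 1 probe set. This covers the noise of probes on the same arrays and not the spread between cultures. In 2234 genes at least 2 probe sets had a mean signal above the median, and the log2 ratios of the brightest pair differed by a median of 0.13, by more than 0.38 in 1 of 10 genes, and by more than 1 in 11 genes (0.492%). Of the 242 higher genes 65 had another probe set that was not dim in at least 1 array, and it was over 2-fold higher in 31, over 1.5-fold in 46 and on the opposite side in 3, with a median log2 ratio of 0.97. Of the 114 lower genes 35 had one, and it was over 2-fold lower in 11, over 1.5-fold in 17 and on the opposite side in 4, with a median of -0.44. The second probe set was thus nearer to no difference among the lower genes than among the higher ones. The genes were counted by the probe set used, and the second one had no part in that choice.

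**Figure D5:**
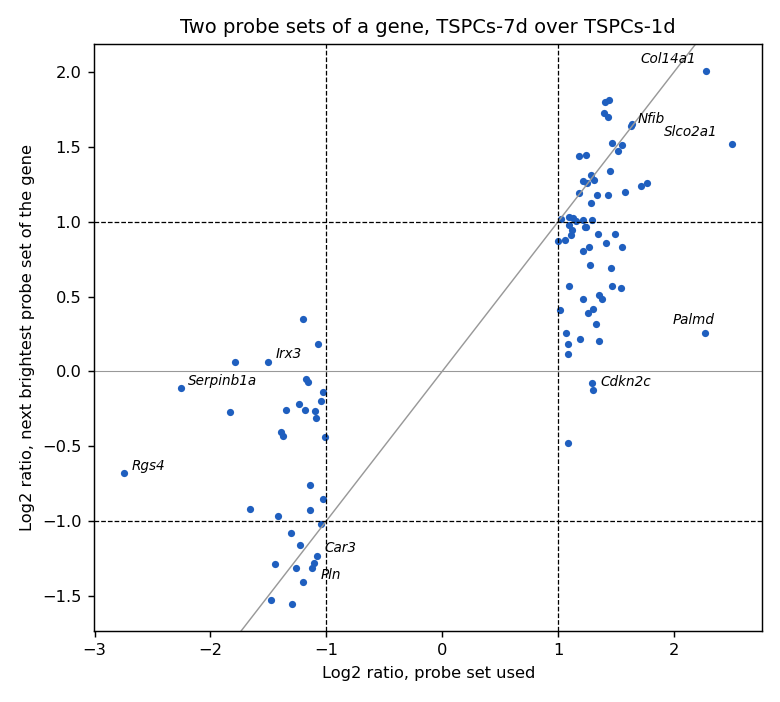
Log2 ratio of TSPCs-7d over TSPCs-1d in the next brightest probe set (vertical axis) against that in the probe set used (horizontal axis, dim signals raised to 48.9), 1 point for each of 100 genes past 2-fold whose next probe set is not dim in at least 1 array; the diagonal marks equal ratios and dashed lines 2-fold. *Col14a1*, *Nfib*, *Pln* and *Car3* lie near the diagonal, while *Palmd*, *Serpinb1a* and *Irx3* lie near 0 on the vertical axis.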

How the data were processed

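Total RNA of TSPCs at passage 2 was hybridized to Affymetrix Rat Genome 230 2.0 arrays, 1 for each age. The methods of the authors name both MAS5 and RMA for normalization, while MAS5 is the only tool in the processing notes of the submitters. How these were combined is not given in the sources used here. The deposited values of 31042 probe sets are of the unit intensity, on a linear scale with a minimum of 1, and were not scaled again. MAS5 keeps faint signals noisy, and the number of arrays limits the precision.

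Groups were taken from the sample titles. Of the probe sets, 20826 carry 1 gene symbol in the annotation of the platform, 436 carry several and 9780 none, and 20758 of the first group matched the RefSeq gene table of GRCr8, used for current names. Where a gene had several probe sets, that of the highest mean signal over all arrays, TSPCs-56d included, was kept. The ratio of TSPCs-7d over TSPCs-1d was computed with the cutoff of 2.0 that the methods use. The counts that the study gives for this comparison differ from those here, both over genes and over all probe sets. With 1 array per age no test was made. Signals under 48.9 were treated as dim.

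The comparison, the naming rule and the members of the 87 lists were chosen with earlier results of these data known, and no list supports another result. Families were matched by the start of the symbol, and genes that merely share it were taken out. Named genes are the 30 highest and 30 lowest by ratio with dim signals raised, up to 4 members past 2-fold per list and direction, genes the study names and defining markers of other cell types. Further genes were named after their values were seen, among them members of a list within 2-fold and genes in no list. Promoters are RefSeq windows of 250 bases before to 50 after the start, found for 137 of the 157 genes of the 7 cell cycle lists.

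As alternatives, arrays were divided by their medians, quantile normalized or centred by loess with a span of 0.2. Low signals were raised to the 25th percentile or to the median, or 32 was added as a pseudocount. Further settings were genes above the median of mean signal alone, probe sets averaged per gene, none shared between transcripts, all probe sets, and cutoffs of 1.5 and 3. The calculation was tested on simulated data. Raw probe intensities and detection calls were not analysed here. The members of 1 list are not reported here. Tools were Python 3.11.15, matplotlib 3.10.9, statsmodels 0.14.6, scipy 1.17.1, pandas 2.3.3 and numpy 2.4.6.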

Additional observations from a re-analysis of the deposited data

How the results depend on the processing

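The count of genes higher in TSPCs-7d by over 2-fold was 266, and lay between 199 and 265 under the scalings, floors, pseudocount, signal filter and probe set rules tried on genes. It was 422 over all probe sets, 685 at a 1.5-fold cutoff and 43 at a 3-fold cutoff. The count of genes lower in TSPCs-7d was 153, and was more open to faint signals: it was 89 with signals under the median raised to it, 100 with a pseudocount of 32, 93 among genes above the median of mean signal and 307 over all probe sets. At a 1.5-fold cutoff it was 473 and at a 3-fold cutoff 55, so that at 3-fold more genes were lower than higher as measured. With dim signals raised this turned, with 41 genes higher and 33 lower at 3-fold. Higher genes made up 63.5% of the calls, and 62.1% to 70.8% under the settings tried on genes at 2-fold. No scaling moved the median log2 ratio of all genes by over 0.1. Of the genes of the 7 cell cycle lists, of which 141 to 157 were measured, 96 to 109 were over 2-fold higher and 0 lower under these settings. Of the 109 over 2-fold as measured, 86 were so under every setting that kept them. Over 9 settings 783 list medians were computed, of which 782 moved by less than 0.38, the log2 difference that 1 in 10 genes exceeds between its probe sets. Of these medians 40, in 26 lists, changed sign, each from a log2 ratio of at most 0.16 in size, so no direction can be read from a list median that close to 0. *Irx3* reversed, from a log2 ratio of -1.50 to 0.0659 without probe sets shared between transcripts. Of 152 named genes past 2-fold, 24 came within it with signals raised to the median, 21 with probe sets averaged and 17 with the pseudocount. *Alx1* went from -3.62 to -1.70 with signals raised to the median, and *Rgs4* from -2.74 to -1.71 with probe sets averaged. No paired analysis was possible because there was 1 array per age. No array could be left out for the same reason. Genes with a dim signal have only a bound, and differences under about the spread between probe sets cannot be read from these arrays. Larger differences still lack any measure of the spread between cultures.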

Other observations

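Probe sets that the platform's table does not pair with a single gene also differed. Of 10216 such probe sets, 88 were over 2-fold higher in TSPCs-7d and 97 over 2-fold lower, and with dim signals raised 38 were higher and 47 lower, so the excess of higher calls among named genes was not seen among them.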
